A study of Schizosaccharomyces pombe with 12 samples.

Results

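The comparison described here sets the transcriptome of fission yeast cells lacking ntu1 (ntu1_KO) against that of h+ wild-type cells (ntu_WT). Its 6 libraries, 3 per group, were taken by sample title from the 12 libraries of an RNA sequencing series of Schizosaccharomyces pombe, whose labelled question is how expression differs between wild type and cells without ntu1 or ntu2. Cells were grown exponentially in the rich medium YES at 30 °C, and stranded poly(A)-selected libraries started from 300 ng of RNA per sample. The ntu1_KO strain is h+, carries the deletion as ntu1D::kanMX, and has the ade6 allele ade6-M216. The ntu_WT strain is h+ with no deletion and has ade6-M210. A second wild type (wt_WT, 3 libraries) is h- with ade6-704 and served only to mark genes in which it lies on the side of ntu1_KO. All 3 strains carry leu1-32 and ura4-D18. The kanMX marker, the ade6 allele and the deletion of ntu1 go together in the ntu1_KO strain and cannot be told apart here. Both wild types carry 1 strain name in the labels although their genotypes differ, and nothing says that the libraries of a group came from separate cultures, so p-values measure the spread between these libraries, which may be technical.

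Nicotinic acid, a form of vitamin B3, is a precursor of NAD, the carrier of electrons in metabolism. Fission yeast lacks the route that makes NAD from tryptophan and depends on taking up nicotinic acid or related compounds through transporters in its plasma membrane. The annotation calls the ntu1 product a regulatory protein and the ntu2 product a membrane-tethered transcription factor.

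Levels are given as counts per 1e+06 counts (CPM) after library scaling, in the order of the replicate numbers. Library totals were 4709606 to 7501178 counts in ntu1_KO, 5998569 to 7556338 in ntu_WT and 11308010 to 11782294 in wt_WT. The ribosomal RNA share was 0.683% to 6.68% in ntu1_KO, highest in replicate 1, and 2.4% to 2.67% in ntu_WT. The deletion was checked on ntu1 itself (SPBC16G5.16), which lies on chromosome II and had 12.3, 9.23 and 9.69 CPM in ntu1_KO, against 89.9, 92.3 and 97.3 CPM in ntu_WT. The residual level in ntu1_KO was low in every library, and wt_WT was at the ntu_WT level with 103, 96.6 and 96.98 CPM. The mating-type gene mat2-Pc of h+ cells had 7.66, 10.3 and 10.5 CPM in ntu1_KO and 13.9, 14.6 and 14.7 CPM in ntu_WT, against 0 counts in wt_WT. The h- gene mat1-Mc was at 0 counts in all ntu1_KO libraries and in 2 of the 3 ntu_WT libraries, against 43.1, 40.1 and 37.9 CPM in wt_WT. Other mating markers are given as means in ntu1_KO, ntu_WT and wt_WT. The mfm2 gene had 2.34, 1.31 and 25.2 CPM, mam1 38.53, 30.49 and 45.45 CPM, and map3 23.85, 28.58 and 15.5 CPM. The map2 gene had 2.902, 4.995 and 4.158 CPM, and mam2 2.965, 2.976 and 3.253 CPM. Scarce throughout were mfm1 (0.207, 0.262 and 0.453 CPM) and mfm3 (0.429, 0.645 and 0.425 CPM). The ura4 gene and the meiotic kinase gene spo4 had 0 counts throughout, which allows up to 3 counts per library (counting error only). Most other meiotic marker genes were detected. The mei2 gene had 60.0, 71.7 and 75.4 CPM in ntu1_KO, 80.3, 68.9 and 65.9 CPM in ntu_WT and 27.5, 28.5 and 31.2 CPM in wt_WT. Means in ntu1_KO and ntu_WT were 6.56 and 6.39 CPM for mei4, 5.88 and 6.99 CPM for spo6 and 4.41 and 2.70 CPM for rec8. The mei3 gene averaged 0.318 and 0.307 CPM.

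The clearest difference between ntu1_KO and ntu_WT lay in a pair of vitamin transporter genes that were abundant in the deletion and low in wild type. The tna1 gene (SPAC1002.16c, chromosome I), which encodes the plasma membrane transporter of nicotinic acid, had 1440, 1304 and 1379 CPM in ntu1_KO, against 28.1, 28.7 and 23.5 CPM in ntu_WT. The second gene, SPCC576.17c (chromosome III), annotated as a transporter of pyridoxine and the other forms of vitamin B6, had 620.1, 565 and 589 CPM in ntu1_KO, against 29.97, 22.7 and 19.8 CPM in ntu_WT. Every ntu1_KO library lay far above every ntu_WT library for both genes. In RNA from whole cultures, a change in every cell and a change in some of the cells cannot be told apart. The log2 fold change of ntu1_KO over ntu_WT was 5.68 ± 0.10 for tna1 (SE; edgeR adjusted p = 1.06e-15, from a quasi-likelihood F-test adjusted over 5808 genes), a 51.4-fold rise. For SPCC576.17c it was 4.62 ± 0.11 (edgeR adjusted p = 4.50e-12), a 24.7-fold rise. The second wild type did not share either change, since its libraries overlapped those of ntu_WT at 44.2, 54.1 and 21.2 CPM for tna1 and 30.6, 34.7 and 17.9 CPM for SPCC576.17c.

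On the length-corrected scale of transcripts per 1e+06 transcripts (TPM), tna1 averaged 913 TPM in ntu1_KO, the level of rank 230 among all genes of the table counted from the highest, against 17.7 TPM and rank 4372 in ntu_WT. SPCC576.17c averaged 299 TPM and rank 521 in ntu1_KO, against 12.1 TPM and rank 4775 in ntu_WT. As a share of the 6936 genes of the table, these ranks are the top 3.32% for tna1 and the top 7.51% for SPCC576.17c in ntu1_KO, against 63% and 68.8% in ntu_WT. The non-coding RNA SPNCRNA.1263 overlaps SPCC576.17c on the opposite strand and had 41.9, 46.9 and 42.1 CPM in ntu1_KO, against 51.1, 51.6 and 54.2 CPM in ntu_WT. It did not pass the test (log2 fold change -0.26 ± 0.12, edgeR adjusted p = 0.846).

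The rest of the NAD and vitamin genes gave no such difference. Of the 7 tested genes listed for NAD precursor uptake and NAD synthesis, the same pair passed and the other 5 did not. The nicotinamidase gene pnc1, which turns nicotinamide into nicotinic acid, had 40.6, 35.6 and 37.7 CPM in ntu1_KO and 37.8, 36.5 and 37.8 CPM in ntu_WT. The nicotinate phosphoribosyltransferase gene npt1, the next step towards NAD, had 189, 169 and 176 CPM in ntu1_KO and 178, 176 and 176 CPM in ntu_WT. Both sets of libraries overlapped, and the log2 fold changes were 0.02 ± 0.10 for pnc1 and 0.01 ± 0.07 for npt1. The NAD synthetase gene qns1 (0.01 ± 0.07) and the nicotinamide riboside kinase gene nrk1 (0.02 ± 0.08) were likewise near 0 on the log2 scale. Among 4 tested transporters of other vitamins, none passed, including the vitamin B6 carrier gene bsu1 at 21.7, 22.4 and 22.3 CPM in ntu1_KO and 22.7, 27.2 and 18.7 CPM in ntu_WT (log2 fold change -0.05 ± 0.15). The biotin transporter gene vht1 had 1326, 1374 and 1653 CPM in ntu1_KO, against 1261, 1236 and 1260 CPM in ntu_WT. Its libraries did not overlap but its change of 0.21 ± 0.18 did not pass (edgeR adjusted p = 0.985), and wt_WT lay on the same side at 1623, 1696 and 1743 CPM.

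The neighbours of the deleted gene were examined because a marker cassette replaces it. The flanking genes fkh2 (0.10 ± 0.09), which encodes a forkhead transcription factor, and SPBC16G5.17 (-0.04 ± 0.08) had log2 fold changes near 0 and did not pass (edgeR adjusted p = 0.985 and 0.999). Around SPCC576.17c, none of the 4 tested protein-coding genes on either side passed. On one side of tna1 lie the uracil-regulated genes urg2, urg3 and urg1, and these were the tested genes around tna1 whose libraries did not overlap between ntu1_KO and ntu_WT. The urg2 gene, a putative uracil phosphoribosyltransferase, had 202, 134 and 153 CPM in ntu1_KO, against 92.8, 77.3 and 65.5 CPM in ntu_WT. The urg3 gene had 196, 154 and 171 CPM in ntu1_KO, against 120.2, 116 and 108 CPM in ntu_WT. The urg1 gene, of a GTP cyclohydrolase, had 102, 75.5 and 68.2 CPM in ntu1_KO, against 51.1, 50.3 and 43.3 CPM in ntu_WT. All ntu1_KO libraries were above all ntu_WT libraries for the 3 genes. The changes of urg3 (0.60 ± 0.09, edgeR adjusted p = 0.00283) and urg1 (0.77 ± 0.14, edgeR adjusted p = 0.0212) passed, and that of urg2 did not (1.05 ± 0.20, edgeR adjusted p = 0.09496). The call for urg1 was lost when any 1 of the ntu_WT libraries or ntu2_KO replicate 3 was left out, with edgeR adjusted p up to 0.14. In wt_WT the urg genes were as high as in ntu1_KO or higher, at 227, 227 and 241 CPM for urg2 and 147, 137 and 162 CPM for urg1, while tna1 was not raised there. On the other side of tna1, itt1 was at 0.11 ± 0.09 on the log2 scale and did not pass.

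Across the 5808 tested genes, 13 (0.224%) reached an adjusted p under 0.05 and a fold change of 2 or more, 5 higher (0.0861%) and 8 lower (0.138%) in ntu1_KO. With no fold minimum 43 genes (0.74%) passed, 27 higher (0.465%) and 16 lower (0.275%). In all 43 the 3 ntu1_KO libraries lay beyond the 3 ntu_WT libraries. The 30 genes under 2-fold (0.517% of those tested) comprised 22 higher genes (0.379%), with ratios of 1.23 to 1.87, and 8 lower genes (0.138%), with ratios of 0.513 to 0.764. The median log2 fold change of all tested genes was 0.00128, with quartiles at -0.0692 and 0.0732, so the bulk of the transcriptome lay close to 0. Of the 43, 38 are protein-coding and 5 are non-coding RNA genes.

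The estimate of the spread is shared with 3 libraries of an ntu2 deletion (ntu2_KO), and some calls turned on those libraries. The ntu2_KO strain is h+ with ntu2D::kanMX and, like ntu1_KO, ade6-M216, leu1-32 and ura4-D18. It was not compared as a group here, and its levels are given for some genes only. For tna1 (1214, 1497 and 1318 CPM) and SPCC576.17c (578, 650.4 and 607.7 CPM) the ntu2_KO levels were near those of ntu1_KO. In a fit of the 6 ntu1_KO and ntu_WT libraries alone 70 genes passed, 17 of them at 2-fold or more, with 42 of the 43 and all 13 among them. The other 4 past 2-fold were SPNCRNA.388, SPAC186.06, SPAPB15E9.02c and SPNCRNA.779. The non-coding RNA SPNCRNA.388 had 0, 0.264 and 0.421 CPM in ntu1_KO, against 9.48, 8.63 and 6.98 CPM in ntu_WT, with 25.5, 24.4 and 26.7 CPM in wt_WT. The ntu1_KO libraries were far below both wild types, which themselves differed. Its log2 fold change of -5.10 ± 1.75 had an edgeR adjusted p of 0.732 in the fit of 9 libraries, but 2.61e-06 in the fit of 6 (-5.11 ± 0.46). The ntu2_KO libraries had 15.8, 0.833 and 0.170 CPM, so that replicate 1 stood with the wild types and the others with ntu1_KO, and without ntu2_KO replicate 1 the edgeR adjusted p was 9.97e-05. For SPAC186.06, with 5.698, 6.59 and 5.69 CPM in ntu1_KO, against 0.339, 0.796 and 1.81 CPM in ntu_WT and 9.74, 9.65 and 11.8 CPM in wt_WT, the edgeR adjusted p was 0.129 with 9 libraries and 0.00123 with 6.

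**Figure D1:**
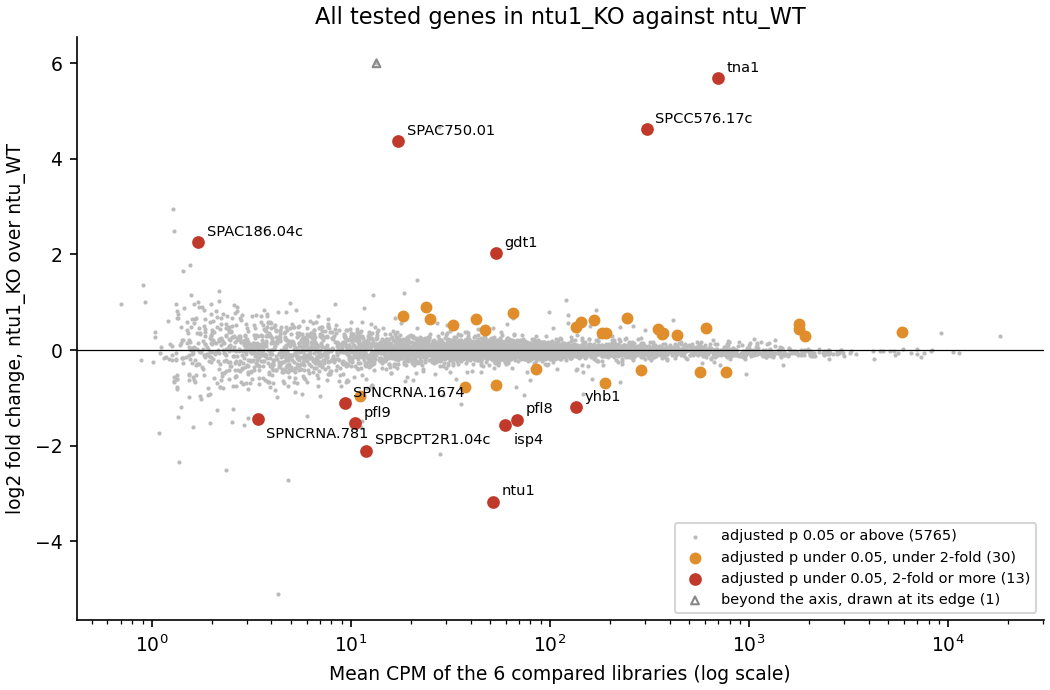
Log2 fold change of ntu1_KO over ntu_WT (vertical axis) against the mean CPM of the 6 libraries (horizontal log axis), 1 point per tested gene, with 13 genes past the test at 2-fold or more in red, 30 passing genes under 2-fold in orange and all others in grey. The vitamin transporter genes tna1 and SPCC576.17c are the highest passing points, ntu1 is the lowest passing point, and the 1 gene beyond the axis is tlh2, which did not pass.

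Other genes that changed 2-fold or more encode enzymes and surface proteins. SPAC750.01, an aldo/keto reductase gene near an end of chromosome I, had 33.8, 29.3 and 36.0 CPM in ntu1_KO, against 2.37, 1.195 and 1.26 CPM in ntu_WT. All ntu1_KO libraries were higher, by 4.38 ± 0.28 on the log2 scale (edgeR adjusted p = 4.33e-08). Of its 31-base words, 37.6% occur elsewhere in the genome, so part of its counts may be shared with a related gene. The wt_WT level of 15.97, 13.2 and 14.2 CPM lay between the other groups, and ntu1_KO was above it as well (log2 fold change 1.19 ± 0.18, edgeR adjusted p = 3.39e-04).

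The nitric oxide dioxygenase gene yhb1, whose product removes nitric oxide, had 88.2, 75.9 and 84.6 CPM in ntu1_KO, against 178, 198 and 189 CPM in ntu_WT. The groups did not overlap, and ntu1_KO differed from ntu_WT by -1.19 ± 0.07 on the log2 scale (edgeR adjusted p = 1.83e-08). The wt_WT libraries, at 107, 97.2 and 103 CPM, were also below ntu_WT and lay close to ntu1_KO, with a log2 fold change of ntu1_KO over wt_WT of -0.31 ± 0.07 (edgeR adjusted p = 0.00919). Of 24 tested genes listed for nitric oxide and oxidant defence, yhb1 alone passed.

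A peptide transporter gene and a pair of cell surface genes were lower in ntu1_KO, at about the level of the second wild type. The isp4 gene encodes an oligopeptide transporter known for its induction when nitrogen runs out. It had 32.4, 28.3 and 29.3 CPM in ntu1_KO, against 96.4, 86.7 and 84.4 CPM in ntu_WT, with 25.2, 29.9 and 30.6 CPM in wt_WT. Each ntu1_KO library was at about the wt_WT level and below every ntu_WT library (log2 fold change of ntu1_KO over ntu_WT -1.57 ± 0.11, edgeR adjusted p = 1.44e-07). The flocculin-like surface glycoprotein gene pfl8 had 39.4, 34.4 and 36.9 CPM in ntu1_KO, against 92.1, 106 and 104 CPM in ntu_WT, with 32.02, 33.6 and 35.5 CPM in wt_WT. Its relative pfl9 was lower at 7.301, 5.14 and 3.79 CPM in ntu1_KO, against 13.7, 17.5 and 15.9 CPM in ntu_WT, with 4.36, 4.14 and 6.73 CPM in wt_WT. Both had ntu1_KO libraries below all ntu_WT libraries, with log2 fold changes of -1.45 ± 0.12 for pfl8 and -1.53 ± 0.22 for pfl9 (edgeR adjusted p = 3.58e-06 and 0.00144). For isp4, pfl8 and pfl9 the difference of ntu1_KO from wt_WT did not pass, with log2 fold changes of 0.07 ± 0.11, 0.12 ± 0.12 and 0.10 ± 0.24.

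**Figure D2:**
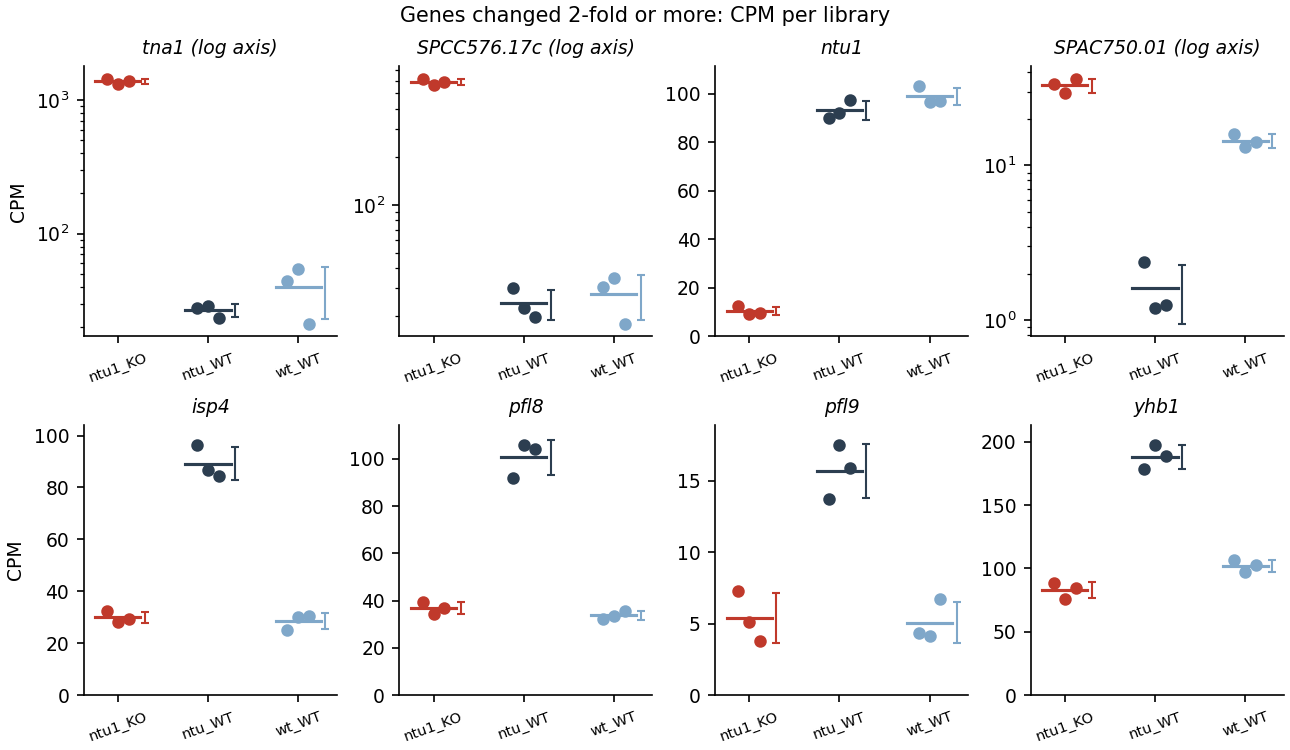
CPM per library (vertical axes, log where stated, otherwise from 0) of 8 genes that changed 2-fold or more, in ntu1_KO (red), ntu_WT (dark) and wt_WT (light blue), with the mean as a line and the SD beside it (n = 3). For tna1, SPCC576.17c and ntu1 wt_WT sits with ntu_WT, and for isp4, pfl8 and pfl9 it sits with ntu1_KO.

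Further genes past 2-fold lie near an end of chromosome I or II. The gdt1 gene (SPAC186.05c), of a family whose budding yeast member acts in calcium and manganese transport, had 73.2, 91.99 and 94.1 CPM in ntu1_KO, against 22.2, 21.5 and 19.96 CPM in ntu_WT. SPAC186.04c from the same stretch had 2.67, 2.77 and 3.16 CPM in ntu1_KO, against 0.339, 0.796 and 0.558 CPM in ntu_WT. Both were higher in all ntu1_KO libraries, and wt_WT was on the same side, at 106, 100.3 and 103 CPM for gdt1 and 1.88, 1.72 and 2.57 CPM for SPAC186.04c. The log2 fold changes were 2.03 ± 0.27 for gdt1 and 2.26 ± 0.48 for SPAC186.04c (edgeR adjusted p = 0.0219 and 0.0339). Both calls were lost when single libraries were left out of the 9-library fit. The gdt1 gene failed in 5 of the 6 fits that each left out 1 library (edgeR adjusted p up to 0.166) and SPAC186.04c in all 6 (up to 0.196). With the 6 ntu1_KO and ntu_WT libraries alone both passed (edgeR adjusted p = 1.40e-09 for gdt1 and 0.0122 for SPAC186.04c). For gdt1 the ntu2_KO libraries had 101, 47.3 and 78.0 CPM. The ntu2_KO libraries moved the gdt1 call too, to an edgeR adjusted p of 9.08e-08 without ntu2_KO replicate 2 and 0.0765 without ntu2_KO replicate 3. SPBCPT2R1.04c on chromosome II, an uncharacterized gene with 94.3% of its 31-base words found elsewhere, had 6.41, 3.82 and 3.37 CPM in ntu1_KO, against 16.1, 24.6 and 17.7 CPM in ntu_WT. It fell by 2.10 on the log2 scale (edgeR adjusted p = 8.99e-05), and ntu1_KO was also below wt_WT (log2 fold change -1.67 ± 0.22, edgeR adjusted p = 8.35e-05). In all, 9 of the 43 passing genes lie at a chromosome end, within 100 kb of the tips of I or II, 7 of them among the 13 past 2-fold. Of 87 tested genes in these stretches, 3 passed higher and 6 lower, beside 0.465% higher and 0.275% lower over all tested genes, and their median log2 fold change was -0.07. In every ntu1_KO library 8 of the 87 (9.2%) were higher and 19 (21.8%) lower, beside 6.9% and 7.04% over all tested genes.

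The remaining pair past 2-fold were low non-coding RNA genes. SPNCRNA.1674 had 7.12, 4.35 and 6.53 CPM in ntu1_KO, against 9.99, 12.6 and 15.6 CPM in ntu_WT. SPNCRNA.781 had 1.603, 1.58 and 2.32 CPM in ntu1_KO, against 5.93, 4.25 and 4.75 CPM in ntu_WT. Both were lower in every ntu1_KO library (log2 fold changes -1.11 ± 0.23 and -1.45 ± 0.30; edgeR adjusted p = 0.0294 and 0.0314), and wt_WT overlapped ntu_WT in both. Neither call held in every fit with 1 library left out. SPNCRNA.781 lost it in all 6 such fits, with edgeR adjusted p up to 0.251, and SPNCRNA.1674 in 4 of the 6, with adjusted p up to 0.274.

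Among the changes under 2-fold, genes of serine synthesis, one-carbon transfer and methylation made up 9 of the 22 higher genes. Serine hydroxymethyltransferase and glycine cleavage pass single carbons from serine and glycine to tetrahydrofolate, homocysteine takes up such a carbon as a methyl group to give methionine, methionine becomes S-adenosylmethionine, and phospholipid methyltransferases use it to turn phosphatidylethanolamine into phosphatidylcholine. The set of 19 tested genes described here was put together after its values were seen. Its other 10 members, with ser1 and ser2 of serine synthesis and the folate reductases met9 and met11 that stand between the passing genes, did not pass.

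In serine synthesis, ser3, the phosphoglycerate dehydrogenase of serine synthesis, had 758, 662 and 694 CPM in ntu1_KO, against 539, 506 and 487 CPM in ntu_WT. The serine hydroxymethyltransferase gene shm1 had 2236, 2050 and 2043 CPM in ntu1_KO, against 1823, 1675 and 1664 CPM in ntu_WT. The log2 fold changes of 0.47 ± 0.06 for ser3 (edgeR adjusted p = 7.84e-04) and 0.29 ± 0.06 for shm1 (edgeR adjusted p = 0.0314) were small, but no library of one group reached the other group. Without 1 library, shm1 failed in 5 of 6 fits, with edgeR adjusted p up to 0.324. The glycine cleavage gene gcv1 had 217, 210.2 and 222 CPM in ntu1_KO, against 169.7, 173 and 161 CPM in ntu_WT, and thf1, which interconverts folate-bound carbon units, had 425, 412 and 417 CPM in ntu1_KO, against 327, 343 and 305 CPM in ntu_WT. Their log2 fold changes were 0.37 ± 0.06 for gcv1 and 0.36 ± 0.06 for thf1 (edgeR adjusted p = 0.00213 and 0.004101), and thf1 failed without ntu_WT replicate 3 (edgeR adjusted p = 0.0534). The other glycine cleavage genes, gcv2 (0.26 ± 0.07, edgeR adjusted p = 0.172) and gcv3 (0.24 ± 0.06, edgeR adjusted p = 0.0649), were higher in every ntu1_KO library but did not pass. The paralogue shm2 (0.03 ± 0.05) and the serine genes ser1 (0.06 ± 0.06) and ser2 (0.00 ± 0.06) were near 0. Outside this set, ade9, annotated like thf1 as a trifunctional folate enzyme, was higher in every ntu1_KO library but did not pass (0.08 ± 0.05, edgeR adjusted p = 0.951).

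In the methyl cycle, the homocysteine methyltransferase gene met26, at rank 91 by mean TPM in ntu1_KO, had 6826, 6508 and 6700 CPM in ntu1_KO, against 5325, 5012 and 5058 CPM in ntu_WT. The S-adenosylmethionine synthetase gene sam1 had 2441, 1945 and 1961 CPM in ntu1_KO, against 1502, 1417 and 1406 CPM in ntu_WT. SPBC8D2.18c, the adenosylhomocysteinase that splits the product of methylation, had 2217, 1983 and 1957 CPM in ntu1_KO, against 1568, 1496 and 1467 CPM in ntu_WT. All 3 genes were higher in every ntu1_KO library. The log2 fold changes were 0.38 ± 0.06 for met26, 0.55 ± 0.09 for sam1 and 0.44 ± 0.06 for SPBC8D2.18c (edgeR adjusted p = 0.00156, 0.00881 and 7.84e-04). For sam1, replicate 1 stood above the other ntu1_KO libraries, and the call was lost when ntu_WT replicate 2 or ntu_WT replicate 3 was left out (edgeR adjusted p up to 0.0889).

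The phospholipid methyltransferase genes, which consume S-adenosylmethionine, were higher as well. The cho2 gene had 429.7, 386 and 393 CPM in ntu1_KO, against 306, 295 and 288 CPM in ntu_WT. The cho1 gene had 168, 148 and 156 CPM in ntu1_KO, against 126, 106 and 108 CPM in ntu_WT. Neither gene's groups overlapped, with log2 fold changes of 0.44 ± 0.06 for cho2 (edgeR adjusted p = 3.88e-04) and 0.48 ± 0.08 for cho1 (edgeR adjusted p = 0.00275). The folate reductase genes met9 (0.18 ± 0.08) and met11 (0.01 ± 0.06), the adenosine kinase gene ado1 (-0.01 ± 0.06) and the threonine aldolase gene gly1 (-0.02 ± 0.05) did not pass. In all 9 passing genes the 3 wt_WT libraries also lay above the 3 ntu_WT libraries, with 129 CPM, 131 CPM and 127 CPM for cho1 and 6107, 6403 and 6491 CPM for met26. Against wt_WT, ntu1_KO was higher past the test for SPBC8D2.18c (0.19 ± 0.05, edgeR adjusted p = 0.0454) and cho1 (0.29 ± 0.07, edgeR adjusted p = 0.0123), and not for the other 7.

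**Figure D3:**
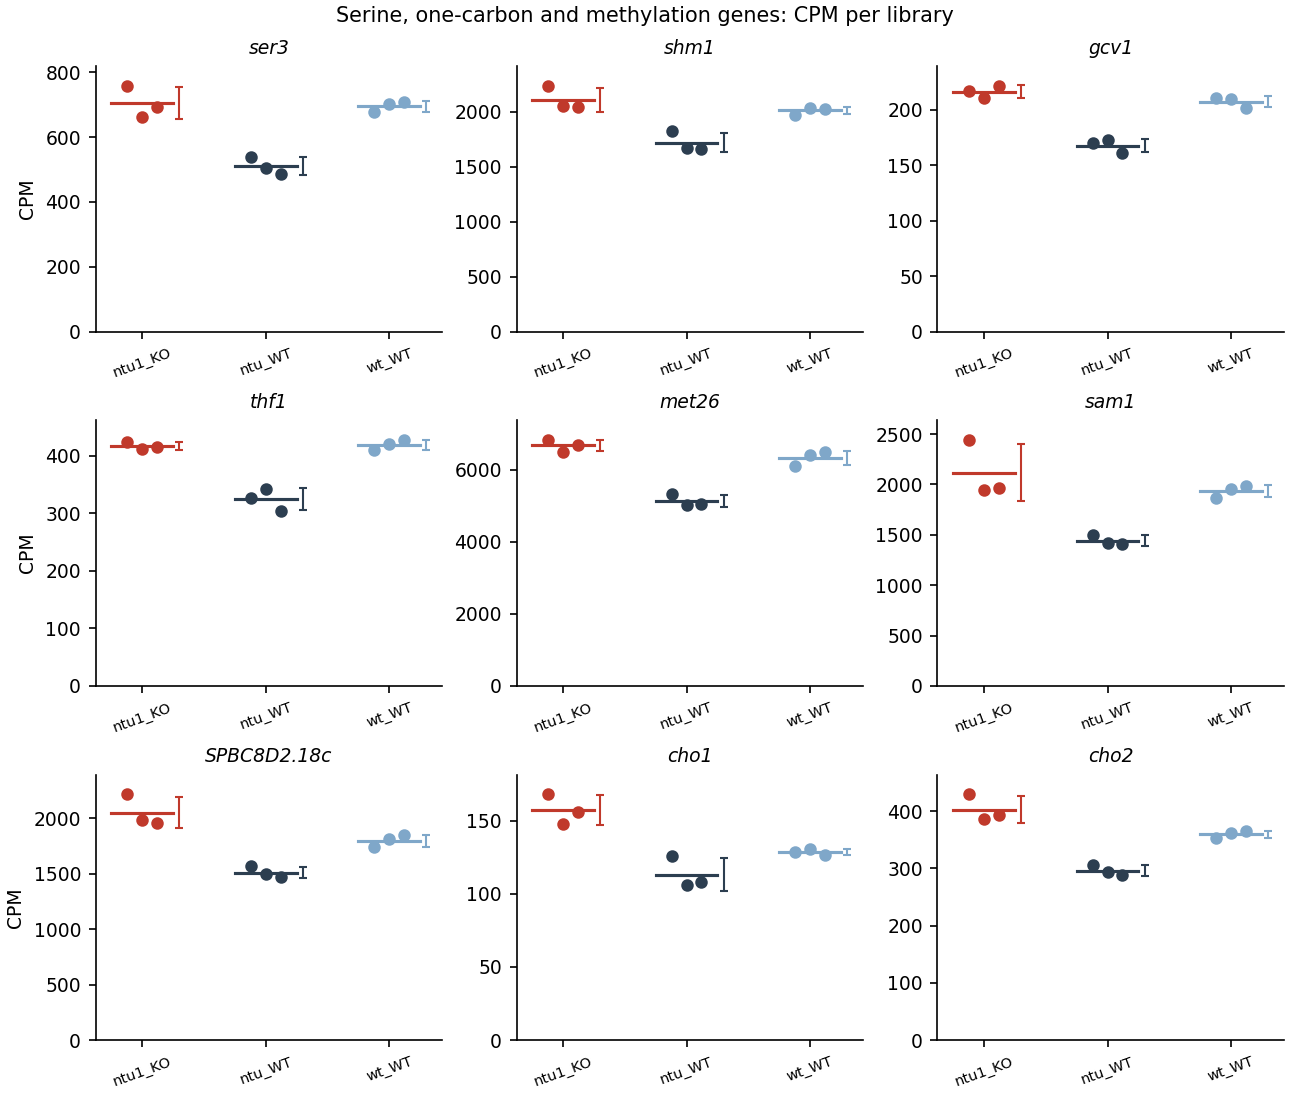
CPM per library (vertical axes, from 0) of the 9 passing genes of serine synthesis, one-carbon transfer and methylation in ntu1_KO (red), ntu_WT (dark) and wt_WT (light blue), with the mean as a line and the SD beside it (n = 3). In every panel the ntu1_KO and wt_WT points lie above the ntu_WT points.

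Among phosphate transporter genes, pho84 and pho841 were lower in ntu1_KO and pho842 was not. The pho842 gene had 269.6, 377.4 and 382.6 CPM in ntu1_KO, against 350.5, 338.9 and 363.1 CPM in ntu_WT. Its groups overlapped and it did not pass (log2 fold change -0.03 ± 0.11, edgeR adjusted p = 0.999). The phosphate transporter gene pho84 had 701, 612 and 631 CPM in ntu1_KO, against 904, 937 and 816 CPM in ntu_WT, and its relative pho841 had 236, 252 and 248 CPM in ntu1_KO, against 326, 342 and 320.0 CPM in ntu_WT. Both were lower in all ntu1_KO libraries, with log2 fold changes of -0.45 ± 0.07 for pho84 and -0.42 ± 0.06 for pho841 (edgeR adjusted p = 0.001502 and 5.68e-04). The secreted acid phosphatase gene pho1 had 809.9, 799 and 788 CPM in ntu1_KO, against 1167, 1190 and 1049 CPM in ntu_WT. It did not overlap between the groups, and its change of -0.51 ± 0.13 did not pass (edgeR adjusted p = 0.232). The wt_WT libraries were lower still, at 461, 444 and 416 CPM for pho84 and 417, 419 and 443 CPM for pho1, so that ntu1_KO lay between the wild types. Small parts of pho84 (7.83% of its 31-base words) and pho841 (7.22%) occur elsewhere in the genome. Of the 14 tested genes listed for phosphate uptake and signalling, which do not include pho841, 1 passed lower, beside 0.275% over all tested genes. In every ntu1_KO library 4 of the 14 (28.6%) were lower and 1 (7.14%) higher, beside 7.04% and 6.9% over all tested genes. Their median log2 fold change was -0.09, and that of wt_WT against ntu_WT was -0.21.

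Of 172 tested genes whose product is named a dehydrogenase or reductase, 6 passed higher in ntu1_KO and 0 lower, beside 0.465% higher and 0.275% lower over all tested genes. In every ntu1_KO library 27 of the 172 (15.7%) were higher and 13 (7.56%) lower, beside 6.9% and 7.04% over all tested genes. The median log2 fold change of the 172 was 0.01. Beside SPAC750.01 and ser3, the passing genes were SPCC663.08c, SPAC26H5.09c, SPAC521.03 and idp1. SPCC663.08c, a short chain dehydrogenase, had 27.8, 34.4 and 30.7 CPM in ntu1_KO, against 16.6, 17.1 and 16.2 CPM in ntu_WT. The isocitrate dehydrogenase gene idp1, of the enzyme that makes 2-oxoglutarate, had 414, 439 and 381 CPM in ntu1_KO, against 313, 331 and 329.9 CPM in ntu_WT. The groups did not overlap in either gene, and the log2 fold changes were 0.90 ± 0.14 for SPCC663.08c and 0.34 ± 0.07 for idp1 (edgeR adjusted p = 0.00213 and 0.0228). SPAC26H5.09c (0.67 ± 0.11, edgeR adjusted p = 0.0177) and SPAC521.03 (0.36 ± 0.07, edgeR adjusted p = 0.0226) were higher too, and in both wt_WT was higher than ntu1_KO, at 496, 519.9 and 523 CPM for SPAC26H5.09c. For idp1 wt_WT was also above ntu1_KO, at 452.3, 492.9 and 500.8 CPM (log2 fold change of ntu1_KO over wt_WT -0.23 ± 0.06, edgeR adjusted p = 0.0417). Of the 31-base words of SPCC663.08c, 17.3% occur elsewhere in the genome. With 1 library left out, idp1 and SPAC521.03 failed in 5 of 6 fits (edgeR adjusted p up to 0.242 and 0.157) and SPAC26H5.09c in 4 (up to 0.118).

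An uncharacterized gene on chromosome II and the RNA that overlaps it moved in opposite directions. SPBP8B7.32 had 132, 140.0 and 160.0 CPM in ntu1_KO, against 228, 232 and 239 CPM in ntu_WT. The non-coding RNA SPNCRNA.1626 on the opposite strand had 56.3, 51.7 and 48.2 CPM in ntu1_KO, against 32.7, 33.5 and 34.2 CPM in ntu_WT. The mRNA was lower and the opposite RNA higher in every ntu1_KO library, with log2 fold changes of -0.70 ± 0.07 (edgeR adjusted p = 2.69e-05) and 0.64 ± 0.11 (edgeR adjusted p = 0.00484). The RNA also overlaps mbx2, a transcription factor gene known to activate flocculin genes, whose log2 fold change of -0.51 ± 0.12 did not pass (edgeR adjusted p = 0.0649), with a mean of 21.98 CPM in ntu1_KO and 31.2 CPM in ntu_WT. SPNCRNA.1626 failed without ntu_WT replicate 2 (edgeR adjusted p = 0.0512). Both changes were on the same side in wt_WT, at 142, 146 and 153 CPM for SPBP8B7.32 and 100.3, 109 and 103 CPM for the RNA. Since no source used here states how strand was treated in counting, reads of genes that overlap on opposite strands cannot be told apart with certainty. Of the 43 passing genes, 19 overlap another gene of the table on the opposite strand, a count given only to show where this limit applies. The share of such overlaps over all tested genes was not computed.

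Sugar, purine and surface genes were also among the smaller changes. The maltase gene mal1, which splits maltose, had 30.99, 25.96 and 25.7 CPM in ntu1_KO, against 44.2, 51.9 and 45.9 CPM in ntu_WT, and the surface glycoprotein gene pfl3 had 41.1, 44.7 and 34.95 CPM in ntu1_KO, against 66.9, 69.6 and 64.8 CPM in ntu_WT. Both were lower in all ntu1_KO libraries, with log2 fold changes of -0.78 ± 0.11 for mal1 and -0.73 ± 0.14 for pfl3 (edgeR adjusted p = 8.63e-04 and 0.0314). Overlapping mal1 on the opposite strand, mal1-antisense-1 was higher in all ntu1_KO libraries, at 2.49, 3.03 and 1.05 CPM in ntu1_KO and 0.339, 0.133 and 0.698 CPM in ntu_WT, and did not pass (log2 fold change 2.49 ± 0.57, edgeR adjusted p = 0.0557). The uricase gene uro1, which acts in purine breakdown, had 39.4, 34.5 and 41.5 CPM in ntu1_KO, against 27.8, 26.4 and 26.2 CPM in ntu_WT (0.52 ± 0.10, edgeR adjusted p = 0.0261). None of 15 tested purine synthesis genes passed, and ade6, whose alleles differ between the strains, had 206, 226 and 214 CPM in ntu1_KO, against 202, 188 and 195 CPM in ntu_WT (0.14 ± 0.06, edgeR adjusted p = 0.7501). With single libraries left out, pfl3 failed in all 6 fits (edgeR adjusted p up to 0.205) and uro1 in 5 (up to 0.18). With the 6 ntu1_KO and ntu_WT libraries alone pfl3 passed (edgeR adjusted p = 1.46e-04).

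The other genes under 2-fold have varied roles. Higher in ntu1_KO were pvg1 (0.32), a Golgi pyruvyl transferase that modifies galactose on glycoproteins, the transporter genes SPAC1399.01c (0.42) and SPAC11D3.18c (0.70), the RNA SPNCRNA.1606 (0.65) and the retrotransposon copy Tf2-7 (0.63), all values being log2 fold changes. Lower were the transporter gene SPCC330.07c (-0.39), the uncharacterized SPAC922.04 (-0.45) and pep3-antisense-1 (-0.96). All 31-base words of Tf2-7 (100%) occur elsewhere in the genome, so its counts cannot be assigned to that copy. The pvg1, SPAC11D3.18c, SPNCRNA.1606 and pep3-antisense-1 genes each failed in 5 of the 6 fits with 1 library left out (edgeR adjusted p up to 0.343, 0.326, 0.153 and 0.334), SPAC1399.01c in all 6 (up to 0.28) and SPCC330.07c in 4 (up to 0.149).

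In most of the passing genes the second wild type lay on the side of ntu1_KO. The comparisons of ntu1_KO and of wt_WT with ntu_WT use the same 3 ntu_WT libraries, so a change common to ntu1_KO and wt_WT cannot be told apart from a departure of the ntu_WT libraries. Of the 43 passing genes, 34 had all 3 wt_WT libraries beyond all 3 ntu_WT libraries on the side of ntu1_KO, 6 overlapped ntu_WT and 3 lay on the other side. Over all tested genes, wt_WT lay beyond ntu_WT in 1 direction or the other for 2057 (35.4%), and of the 810 genes whose ntu1_KO and ntu_WT libraries did not overlap, 415 (51.2%) had wt_WT on the side of ntu1_KO. The 34 comprised 26 of the 30 genes under 2-fold and 8 of the 13 past 2-fold. Of the 34, 30 also passed between wt_WT and ntu_WT. The other 4, with log2 fold changes over ntu_WT, were SPBCPT2R1.04c (-2.10 in ntu1_KO and -0.43 in wt_WT), SPCC663.08c (0.90 in ntu1_KO and 0.15 in wt_WT), SPAC922.04 (-0.45 in ntu1_KO and -0.08 in wt_WT) and cho1 (0.48 in ntu1_KO and 0.19 in wt_WT), and in these ntu1_KO also differed from wt_WT past the test in the same direction. The 6 genes in which wt_WT overlapped ntu_WT were tna1, SPCC576.17c, ntu1, uro1, SPNCRNA.1674 and SPNCRNA.781. In mal1 (58.6, 56.3 and 62.4 CPM), pfl3 (72.9, 71.5 and 75.6 CPM) and SPAC1399.01c (33.2, 31.03 and 33.3 CPM) the wt_WT libraries lay on the opposite side of ntu_WT from ntu1_KO.

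**Figure D4:**
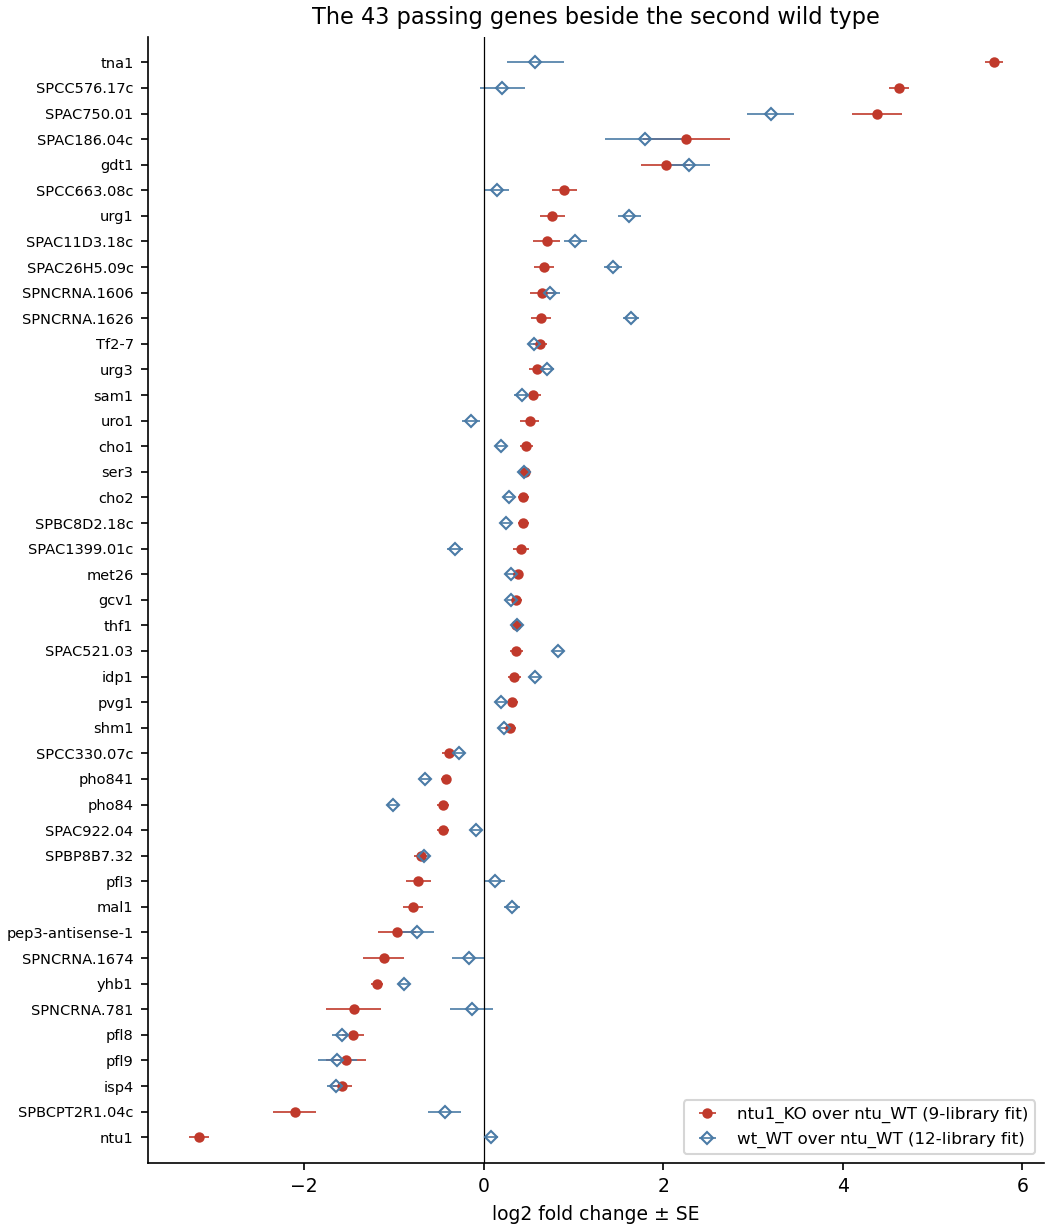
Log2 fold change with its SE (horizontal axis) of the 43 passing genes, as ntu1_KO over ntu_WT (filled red, 9-library fit) and wt_WT over ntu_WT (open blue, 12-library fit). The open points of tna1 (0.57), SPCC576.17c (0.21) and ntu1 (0.09) lie far from their filled points, whereas those of isp4, pfl8, pfl9 and gdt1 lie close to their filled points.

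Set directly against wt_WT in a fit of all 12 libraries, ntu1_KO differed past the test in the same direction for 16 of the 43 genes, in the opposite direction for 7, and did not pass for 20. Over the 5899 genes of that fit, 346 (5.87%) passed between ntu1_KO and wt_WT, and 486 (8.24%) passed between wt_WT and ntu_WT. The 16 comprised 8 genes past 2-fold and 8 under it. They include tna1 (5.11 ± 0.29, edgeR adjusted p = 2.47e-05), SPCC576.17c (4.42 ± 0.20, edgeR adjusted p = 6.68e-06), uro1 (0.65 ± 0.10, edgeR adjusted p = 4.24e-04) and mal1 (-1.10 ± 0.09, edgeR adjusted p = 3.88e-07), given as log2 fold changes of ntu1_KO over wt_WT. Among the 7 that turned round were pho84 (0.56 ± 0.06) and urg1 (-0.86 ± 0.12), in which ntu1_KO lay between the wild types.

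Most genes in which the 3 ntu1_KO libraries lay beyond the 3 ntu_WT libraries did not pass the test, and this order of the libraries alone was not taken as a change. The libraries did not overlap for 810 genes (13.9%), 401 higher (6.9%) and 409 lower (7.04%). Most were small, with 701 under 1.5-fold, 77 between 1.5-fold and 2-fold and 32 at 2-fold or more. At an unadjusted p under 0.05 there were 342 genes (5.89%), 185 higher (3.19%) and 157 lower (2.7%), of which 295 were among the 810. After adjustment over all genes, 43 of the 810 passed and the others did not.

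Grouped by function, 22 of 36 lists had no passing member, and the medians of those 22 lay between -0.17 and 0.21 on the log2 scale. The lists were read by the count of members whose libraries did not overlap, beside the 6.9% higher and 7.04% lower over all tested genes. None of 23 tested genes of the core environmental stress response passed, but 8 were lower in every ntu1_KO library and 0 were higher, with a median of -0.17 (-0.21 to -0.11 with single libraries left out). Set against the ntu_WT mean, the medians of the single ntu1_KO libraries were -0.21, -0.23 and -0.05, the last within the -0.08 to 0.09 of the single ntu_WT libraries, and the median of wt_WT against ntu_WT was 0.02. Among them the lowest p belonged to ish1 at -0.33 ± 0.13 (edgeR adjusted p = 0.695). Of 27 heat shock and chaperone genes 6 were lower and 0 higher in every library, with a median of -0.05 (-0.02 for wt_WT against ntu_WT). Of 34 respiratory chain and ATP synthase genes 4 were lower and 0 higher, with a median of -0.05, and wt_WT lay further from ntu_WT, with a median of -0.17. None of the members of these lists passed the test.

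Cytosolic ribosomal protein genes had a median slightly below 0. Of 141 tested, 0 passed, and the median log2 fold change was -0.08, against 0.00128 over all genes. In every ntu1_KO library 25 (17.7%) were lower and 0 higher, beside 7.04% and 6.9% over all tested genes. The median was below 0 with each library left out in turn (-0.11 to -0.04) and with limma on log2(TPM + 1) (-0.03). The medians of the single ntu1_KO libraries were -0.07, -0.02 and -0.13, so that replicate 2 lay within the -0.05 to 0.07 of the ntu_WT libraries. In wt_WT the median against ntu_WT was -0.09. Mitochondrial ribosomal protein genes (59 tested, median 0.01) and ribosome biogenesis genes (82 tested, median 0.02) had medians closer to 0.

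In amino acid synthesis more members were higher than lower. Of 23 tested genes for leucine, arginine and lysine, 0 passed. In every ntu1_KO library 9 (39.1%) were higher and 2 (8.7%) lower, beside 6.9% and 7.04% over all tested genes. Their median was 0.07 (0.16 for wt_WT against ntu_WT), and the smallest p belonged to leu3 at 0.17 ± 0.05 (edgeR adjusted p = 0.353). The methionine and sulphur list of 22 tested genes had 5 passing members, all higher and already described, beside 0.465% passing higher over all tested genes. In every ntu1_KO library 6 of the 22 (27.3%) were higher and 2 (9.09%) lower, beside the same 6.9% and 7.04%. Their median was 0.08 (0.06 for wt_WT against ntu_WT). Of 8 tested Tf2 retrotransposon genes, whose sequences are nearly the same, 1 passed, and 2 (25%) were higher and 0 lower in every ntu1_KO library. Their median was 0.54, between 0.27 and 0.65 with single libraries left out. The medians of the single ntu1_KO libraries were 0.04, 0.61 and 0.68, so that replicate 1 lay within the -0.05 to 0.14 of the ntu_WT libraries, and the median of wt_WT against ntu_WT was 0.74. The wtf genes, a family of meiotic drivers, had 0 passing members of 15 tested and a median of 0.21 (0.37 for wt_WT against ntu_WT). In every ntu1_KO library 5 of them (33.3%) were higher and 0 lower, beside 6.9% and 7.04% over all tested genes.

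Further lists gave no passing member and medians near 0. These were sterol synthesis (29 tested), iron uptake (22 tested), copper and zinc homeostasis (14 tested), histone genes (12 tested), heterochromatin and RNA silencing (26 tested), thiamine and vitamin B6 genes (11 tested), mating genes (22 tested), proteasome subunits (35 tested) and meiotically upregulated mug and meu genes (89 tested). Their medians ran from -0.06 for iron uptake to 0.03 for the mug and meu genes. The thiamine and vitamin B6 list does not include SPCC576.17c, the raised vitamin B6 transporter gene, which was listed with the NAD genes. In other lists the passing genes were pfl3, pfl8 and pfl9 among 22 flocculin and surface genes, isp4 among 19 genes of nitrogen starvation and peptide uptake, and mal1 among 24 hexose transport and glucose-repressed genes. All were lower in ntu1_KO, beside 0.275% passing lower over all tested genes. In every ntu1_KO library 5 of the 22 flocculin and surface genes (22.7%) were lower and 2 (9.09%) higher, beside 7.04% and 6.9% over all tested genes. For the other lists the lower shares were 10.5% (isp4 list) and 12.5% (mal1 list). Of 51 named transcription factor genes, only ntu1 passed, and ntu2 itself had 249, 205 and 223 CPM in ntu1_KO, against 231, 223 and 203 CPM in ntu_WT (log2 fold change 0.04 ± 0.10, edgeR adjusted p = 0.999). Of 862 tested non-coding RNA genes, 2 passed higher and 3 lower, beside 0.465% and 0.275% over all tested genes, with a median of 0.02. In every ntu1_KO library 7.19% of them were higher and 7.54% lower, near the shares over all tested genes.

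**Figure D5:**
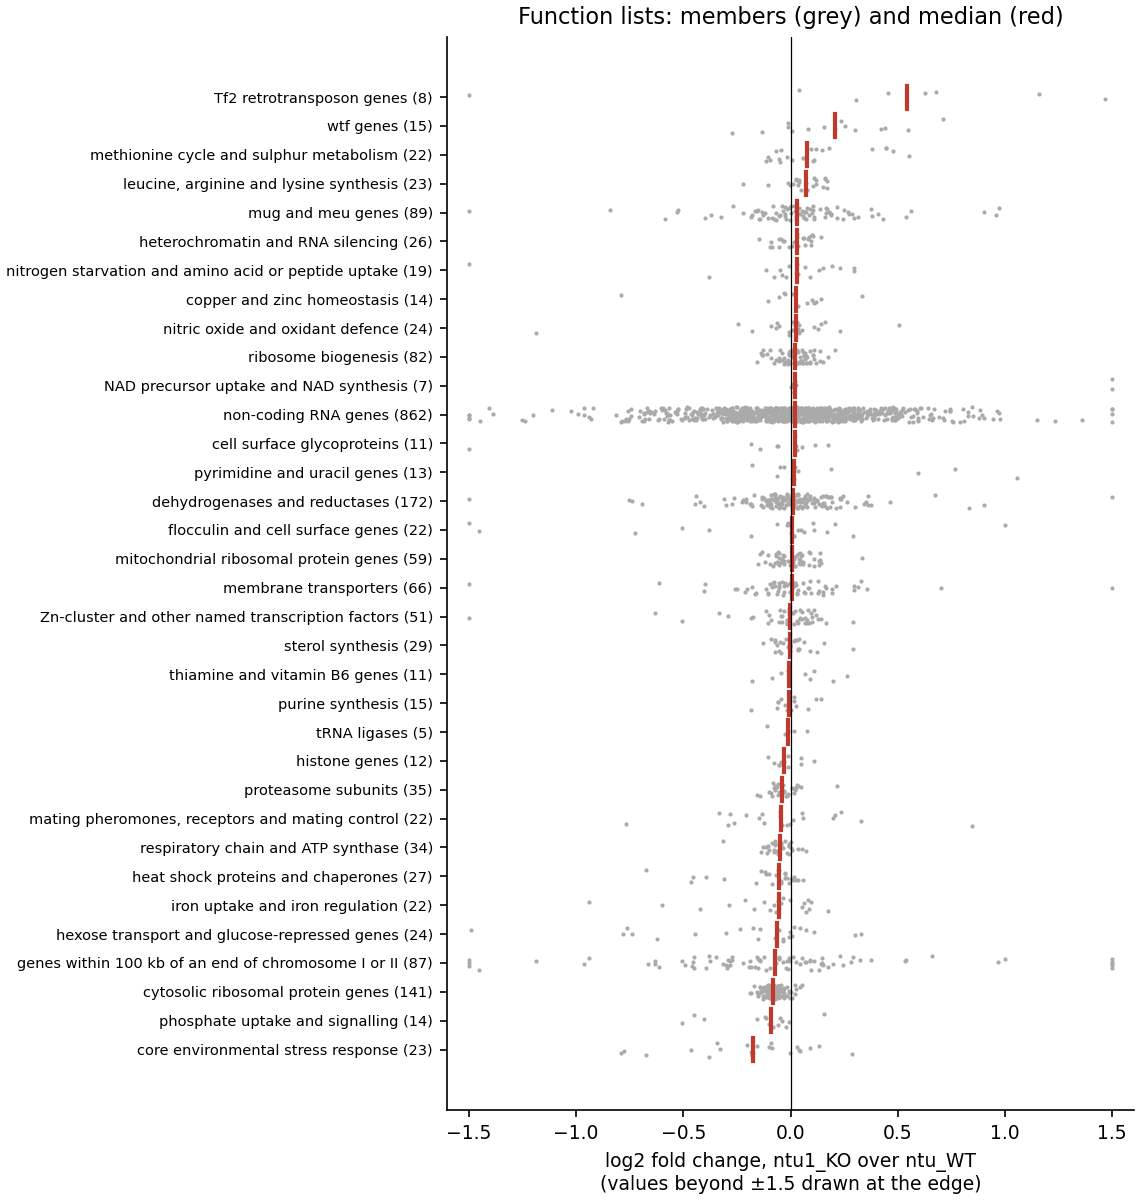
Log2 fold change of ntu1_KO over ntu_WT (horizontal axis, values beyond 1.5 drawn at the edge) for the tested members of each function list with 5 or more of them, members in grey and the list median in red, with the number tested in brackets. Most medians lie near 0, those of Tf2 (0.54) and wtf genes (0.21) are the highest, and the core environmental stress response (-0.17) is the lowest.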

How the data were processed

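Polyadenylated RNA of 12 libraries in 4 groups of 3 was analysed, grouped by sample title. The authors deposited estimated counts per gene and TPM values. The submitters' processing notes name Salmon 1.9.0 and the genome build ASM294v2. No source used here states how strand was treated, nor the remaining steps. Of the non-zero deposited estimated counts 91.2% are not whole, and they were rounded. No column was left unmapped.

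Of 6936 identifiers, 6743 matched the annotation of assembly ASM294v3 (6727 by locus tag, 16 by synonym). Because the builds differ, it served for names, neighbours, distance classes and 31-base words only. Promoter sequences were not used here.

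Genes were tested by edgeR 4.0.16 with its quasi-likelihood F statistic (R 4.3.3; TMM, filterByExpr at 10 counts, robust) in 1 fit of ntu1_KO, ntu_WT and the 3 libraries of an ntu2 deletion (9 libraries, 5808 genes). Comparisons with wt_WT came from 1 fit of 12 libraries (5899 genes). CPM are scaled over all 12 libraries. SE is the size of the log2 fold change over the root of F. The test was tried on simulated data. A gene passed at a Benjamini-Hochberg adjusted p under 0.05. Alternatives were DESeq2 1.42.0, limma 3.58.1 on log2 of the deposited TPM plus a pseudocount of 1 or 0.1 (mean TPM at least 1, or no filter), other scalings and filters, other sets of libraries, leaving out single libraries (those of ntu2_KO after the data were seen), and a block for replicate number. Named genes are those that passed, the deleted genes and their neighbours, markers, and for lists the member of smallest p; others were chosen after their values were seen. The comparison, gene lists and rules were chosen with earlier results of these data known. Within groups, pairs of libraries differed by more than sampling noise (chi-square per degree of freedom 3.09 to 67.2), so none was merged.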

Additional observations from a re-analysis of the deposited data

How the results depend on the processing

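The count of 13 genes past 2-fold ran from 9 to 18 over the alternatives. The count of 43 with no fold minimum was 70 in a fit of ntu1_KO and ntu_WT alone (42 of the 43 among them), 26 at an adjusted p under 0.01, 24 with limma on log2(TPM + 1) without a filter, and 24 to 38 with single ntu1_KO or ntu_WT libraries left out (24 without ntu_WT replicate 3, 25 without ntu_WT replicate 2). The count of 30 under 2-fold was 53 in the fit of the 6 libraries alone, 17 at an adjusted p under 0.01, 17 with limma on log2(TPM + 1) and on log2(TPM + 0.1), 11 with limma without a filter, and 15 to 25 with single libraries left out (15 without ntu_WT replicate 3, 16 without ntu_WT replicate 2, 19 without ntu1_KO replicate 2). Leaving out ntu2_KO libraries in turn, chosen after seeing the data, gave counts of 13 to 16, 45 to 62 and 32 to 46 (the highest each without ntu2_KO replicate 3). Calls were lost for shm1, pvg1, SPAC186.04c and SPAC1399.01c without ntu2_KO replicate 1, for SPAC26H5.09c and pfl3 without replicate 2, and for urg1 and gdt1 without replicate 3. The causes were not tested. Of the 43 genes 18 passed under every alternative run, and tna1, SPCC576.17c and ntu1 were among them. Replicate numbers did not pair the samples (correlations 0.0978, -0.0808 and -0.0517). With the replicate block the counts were 13, 52 and 38, with 42 of the 43 kept and gdt1 lost (edgeR adjusted p = 0.128). The log2 fold change of ntu2, which did not pass, ran from -0.033 (without ntu1_KO replicate 1) to 0.108 (without ntu1_KO replicate 2) with single libraries left out and was -0.0096 without ntu_WT replicate 3. Library totals of 4709606 to 7556338 limit what can be seen in genes of few CPM.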

Other observations

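Of the tested genes, 10 differed by 4-fold or more without passing in the fit of 9 libraries, of which 3 passed with the 6 ntu1_KO and ntu_WT libraries alone. They are given because of their values. The tlh2 gene, of a family of helicases near chromosome ends that are close copies of each other, had 12.5, 54.2 and 13.9 CPM in ntu1_KO, against 0.339, 0 and 0 CPM in ntu_WT, with 0.769, 1.03 and 1.74 CPM in wt_WT. All ntu1_KO libraries were above those of both wild types, replicate 2 most, and the edgeR adjusted p was 0.0815. The ntu2_KO libraries were also above both wild types, at 21.5, 28.5 and 32.3 CPM.

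SPBC23G7.10c, an oxidoreductase gene by its annotation, had 1.78, 0 and 0.421 CPM in ntu1_KO, against 4.23, 4.65 and 3.07 CPM in ntu_WT and 38.0, 39.8 and 39.6 CPM in wt_WT. The ntu1_KO libraries were below both wild types, as for SPNCRNA.388, and ntu2_KO was again divided, with 11.1, 0.999 and 1.19 CPM. It passed neither with 9 libraries (edgeR adjusted p = 0.912) nor with 6 (0.167). In ddr48 and mug108 a single library, ntu_WT replicate 1, was high, with 19.4, 5.27 and 5.47 CPM in ntu1_KO and 122, 10.4 and 5.58 CPM in ntu_WT for ddr48, and 1.96, 0.923 and 0.842 CPM in ntu1_KO and 23.2, 1.06 and 1.12 CPM in ntu_WT for mug108.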
